A study of Luscinia megarhynchos and Luscinia luscinia with 4 samples.

Results

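The testes of 2 closely related nightingales, Luscinia megarhynchos (LM) and Luscinia luscinia (LL), were compared for transcripts of genes on the germline-restricted chromosome (GRC). A gene entered the comparison when its deposited FPKM (reads per kilobase of gene per 1000000 reads of the library) was above 0 in either testis. This held for 259 of the 799 flycatcher coding sequences in the table (32.4%), under 248 gene symbols. The LM testis and the LL testis each came from 1 wild male with no treatment given, and the series holds 1 ovary library of a female of each species besides, 4 libraries in all. With 1 library a group there is no replicate, so no test and no p-value are given, and the intervals below are 95% intervals of counting error only. A difference between the libraries is a difference between these 2 males. None of the 15 germ, Sertoli and Leydig cell marker genes looked for is in the table, so that the tissue label could not be checked against them.

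The GRC is found in the germ cells of songbirds and is eliminated from their somatic cells. It consists largely of copies of genes that also lie on the ordinary (A) chromosomes, many of them incomplete, and its gene content differs between related species. In an adult gonad its genes can thus be transcribed only in germ cells. Those of the testis divide by mitosis, pass through meiosis and then build a flagellum and compact their chromatin. The paper describes the male GRC as normally expelled from the nucleus at meiosis, into a micronucleus beside secondary spermatocytes. What is said below of a gene's role in flagella or spermatids is known from the gene in general, and a role of the GRC copy was not tested. The libraries were made from whole gonads. More cells that carry a GRC and more GRC transcript per cell cannot be told apart in them. For that reason the paper's data description advises against comparing FPKM between libraries. The paper also found that shared genes often differ in GRC copy number between the species and between birds. The ratios between the testes below are not corrected for copy number. Reads were aligned to the GRC and the somatic genome together, and only unique alignments were counted. As the paper cautions, GRC reads that match both equally well are then lost, and reads of A chromosomes can misalign to the GRC. The counting intervals below cover neither.

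Genes are named by the symbol and, where several coding sequences share a symbol, the protein identifier of the collared flycatcher (F. albicollis), whose coding sequences were used to find genes on each GRC. Such sequences of 1 gene can share exons, and how reads were divided between them is not known. For the genes on the study's gene list (listed genes), the deposited FPKM is a read count over the whole flycatcher coding sequence and the library, and it also carries the share of the gene found on that species' GRC as a multiplier. The read number behind each value could be recovered for these genes. So could a further rate, reads per length found, which divides by the length found instead of multiplying by it. Of the 259 genes, 116 are listed. The paper's list kept only genes with a minimum share of the coding region found in either species. It gave the risk of misidentifying proteins from short sequences as the reason. The other 143 genes are outside that list, so which gene each one represents is less certain. For the others only the lowest number of whole reads that fits both gonads of a species can sometimes be given, written "at least n reads".

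The LM testis library had been scaled to 35404629 reads and the LL testis library to 49987547. Reads on listed GRC genes numbered 9009 in the LM testis, which is 254 reads per 1000000 (RPM), and 25975 in the LL testis, which is 519.6 RPM. FPKM summed to 151.6 in the LM testis and 244.2 in the LL testis, and the 5 highest genes made up 52.8% of the sum in LM and 74.0% in LL. The lowest values above 0 were those of KMT2D in the LM testis (1.28e-05 FPKM) and MACF1 in the LL testis (3.77e-05 FPKM). Many values rest on few reads. Of the listed genes above 0, 44 of 86 had 10 or more reads in the LM testis and 46 of 71 in the LL testis, and 11 and 6 of them had a single read.

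Above 0 were 183 genes in the LM testis, against 135 in the LL testis. The listed ones among them numbered 86 and 71, of which 41 were above 0 in both. Both testes shared 59 genes, which is 32.2% of the LM testis genes (exact Clopper-Pearson interval 25.5% to 39.5%, over genes) and 43.7% of the LL testis genes (35.2% to 52.5%). The other 124 genes were above 0 in the LM testis alone and 76 in the LL testis alone. Of all 259 genes, 47.9% were thus above 0 in the LM testis alone, 29.3% in the LL testis alone and 22.8% in both, which is the general state beside which the gene groups below stand. These groups weighed differently in the 2 males. Genes at 0 in the LL testis held 54.1% of the summed FPKM of the LM testis, whereas genes at 0 in the LM testis held 6.90% of the sum of the LL testis. Most of the 81.9 FPKM of the genes at 0 in the LL testis came from LOC101810338, POLD2 and EFNB1. These had 36.3, 16.2 and 6.26 FPKM in the LM testis. The 59 shared genes held 45.9% of the sum of the LM testis, against 93.1% of the sum of the LL testis.

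Genes with a gene name and genes known only by a LOC number also weighed differently. The 142 named genes summed to 32.1 FPKM in the LM testis, against 9.99 FPKM in the LL testis. The 117 LOC genes summed to 119.5 FPKM in the LM testis, against 234.2 FPKM in the LL testis. By these sums LM was the higher testis for named genes and the lower for LOC genes, and few genes weighed most in them. In the LM testis POLD2 had 16.2 FPKM and EFNB1 6.26 FPKM, and no piece of POLD2 was found on the LL GRC. In the LL testis LOC101813248, LOC101813524 and LOC101818220 had 71.9, 48.3 and 43.2 FPKM. Among the shared genes the median log2 ratio of LM over LL was 0.50 for named genes and -0.14 for LOC genes. Without the 5 highest genes of each testis the sums came close to each other, with a log2 ratio of LM over LL of 0.031, against -0.69 with all genes.

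**Figure D1:**
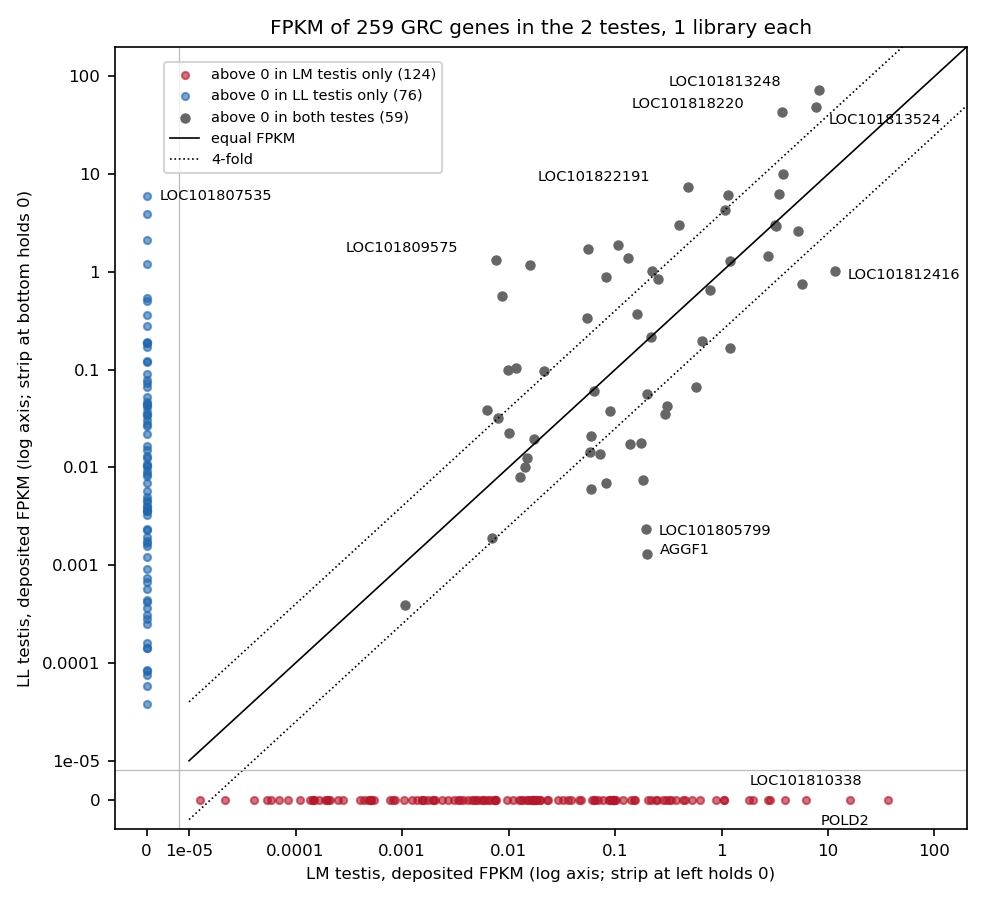
Deposited FPKM of each of the 259 genes in the LM testis (x axis) and the LL testis (y axis), both on log axes with a strip for 0, 1 point per gene and 1 library per species. The 59 genes above 0 in both testes spread far to either side of the line of equal FPKM, and 124 and 76 genes lie in the strips at 0.

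Among the 59 shared genes, 15 were at least 4-fold higher in the LM testis (25.4%) and 20 at least 4-fold lower (33.9%), by deposited FPKM. The median log2 ratio of LM over LL was 0.07, with quartiles at -2.61 and 1.97, so that the middle of the shared genes was near equal while single genes were not. Among shared genes with at least 0.1 FPKM in both testes the median was -1.22, and 3 genes were at least 4-fold higher in LM and 10 at least 4-fold lower. Just past the 4-fold line were LOC107604314 (log2 ratio 2.02) and LOC107604463 (-2.01), and just short of it URB1 (1.91) and LOC107603614 (-1.99). Of the 41 shared genes on the list, 9 were at least 4-fold higher in LM (22%) and 17 at least 4-fold lower (41.5%) by FPKM, and 8 (19.5%) and 19 (46.3%) by reads per length found. Counting error was small beside many of these differences. The interval of the ratio per length found lay wholly above 1 for 11 of the 41 genes, wholly below 1 for 21, and held 1 for 9.

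The highest gene of the LL testis was LOC101813248, which resembles hydin, a protein of the central pair of microtubules in motile cilia and sperm flagella. It had 8.23 FPKM in the LM testis (347 reads), against 71.9 FPKM in the LL testis (4281 reads). It was the fourth highest gene of the LM testis, and by reads per length found it was 8.74-fold lower there than in LL (interval 7.83 to 9.78). In the ovaries it had 0.175 FPKM in LM and 4.12 FPKM in LL, so both testes were far above the ovary of their species.

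LOC101813524, a gene with no name in the files, had the most reads of any listed gene in the LL testis. It had 7.70 FPKM in the LM testis (1031 reads), against 48.3 FPKM in the LL testis (8034 reads). Per length found it was 4.85-fold lower in LM (4.55 to 5.18). LOC101818220 had 3.67 FPKM in the LM testis (97 reads), against 43.2 FPKM in the LL testis (1832 reads), and per length found was 15.2-fold lower in LM (12.4 to 18.8). These 3 LOC genes headed the LL testis, and all 3 were also among the 11 highest genes of the LM testis.

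LOC101822191 stood further apart. It had 0.486 FPKM in the LM testis (121 reads), against 7.40 FPKM in the LL testis (3364 reads), 25.4-fold lower in LM per length found (21.2 to 30.8). LOC107603907 differed less, with 3.75 FPKM in the LM testis (352 reads), against 9.94 FPKM in the LL testis (1431 reads), 3.13-fold lower in LM per length found (2.78 to 3.52). LOC107604624 had 3.44 FPKM in the LM testis (116 reads), against 6.33 FPKM in the LL testis (326 reads). Its ratio per length found, 2.15-fold lower in LM (1.74 to 2.68), was the smallest among the shared genes with 6 FPKM or more in the LL testis.

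HAUS6 encodes a subunit of augmin, the complex that starts new microtubules within the spindle. By deposited FPKM its 2 coding sequences went opposite ways. XP_016160879 had 1.16 FPKM in the LM testis (117 reads), against 6.18 FPKM in the LL testis (882 reads), 5.36-fold lower in LM per length found (4.42 to 6.56). XP_016160880, which is not on the list, had 0.185 FPKM in the LM testis, against 0.00753 FPKM in the LL testis (at least 14 reads), a log2 ratio of 4.62. The ovaries showed the same opposition, with log2 ratios of -1.63 and 8.86 for the 2 sequences. Testis minus ovary, the log2 ratios were -0.79 and -4.24, both negative. No ratio per length found could be given for XP_016160880, so a part of length in its FPKM ratios was not tested. LOC107604463, with 1.08 FPKM in the LM testis (85 reads), against 4.33 FPKM in the LL testis (284 reads), had a larger piece on the LL GRC, and per length found was only 1.39-fold lower in LM (1.09 to 1.80).

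Further genes were at the edge of detection in the LM testis and well counted in the LL testis. LOC101809575 had 0.00759 FPKM in the LM testis (1 read), against 1.32 FPKM in the LL testis (199 reads), the lowest log2 ratio of the 59 genes at -7.44. LOC101821714 had 0.0158 FPKM in the LM testis (2 reads), against 1.17 FPKM in the LL testis (211 reads). Their ratios per length found, 114-fold lower in LM (20.3 to 4539) and 75.2-fold lower (20.6 to 625), have wide intervals because 1 or 2 reads fix them.

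LOC107604341 had 0.0554 FPKM in the LM testis (4 reads), against 1.70 FPKM in the LL testis (173 reads). LOC101817770 had 0.107 FPKM in the LM testis (4 reads), against 1.87 FPKM in the LL testis (123 reads). LOC107603883 had 0.0820 FPKM in the LM testis (5 reads), against 0.890 FPKM in the LL testis (91 reads). Their intervals per length found reached down to 11.8-, 10.3- and 6.33-fold lower in LM, so that these differences exceeded counting error by far. LOC101821470, which is not listed, had 0.132 FPKM in the LM testis, against 1.38 FPKM in the LL testis (at least 306 reads), a log2 ratio of -3.39.

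Most of the genes with the highest LM over LL ratios had low levels, LOC101812416, LOC101812486 and LOC107603488 being exceptions. LOC101812416, the third highest gene of the LM testis, had 11.6 FPKM in the LM testis (287 reads), against 1.02 FPKM in the LL testis (54 reads). Part of that difference in FPKM is the piece found, which is shorter in LL, and per length found the gene was 4.95-fold higher in LM (3.69 to 6.75). LOC101812486 went the other way in this respect. It had 5.68 FPKM in the LM testis (138 reads), against 0.747 FPKM in the LL testis (11 reads), 41.3-fold higher in LM per length found (22.4 to 84.6), against a log2 ratio of 2.93 in FPKM. The piece of LOC101812486 found in LM is shorter than a read of 150 bp. A rate per length is unreliable for so short a piece, and the interval does not cover this. LOC107603488 came next, at a log2 ratio of 2.87 in FPKM. It had 1.21 FPKM in the LM testis (102 reads), against 0.165 FPKM in the LL testis (20 reads). Per length found LOC107603488 was 7.10-fold higher in LM (4.37 to 12.1).

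AGGF1, an angiogenic factor first described in blood vessels, had the highest ratio of the shared genes. It had 0.199 FPKM in the LM testis (at least 121 reads), against 0.00130 FPKM in the LL testis (at least 1 read), a log2 ratio of 7.26. LOC101805799 had 0.197 FPKM in the LM testis (94 reads), against 0.00233 FPKM in the LL testis (2 reads), 52.2-fold higher in LM per length found (14.1 to 437). In FPKM, both genes were well above the lowest values in LM and near the low end of the shared genes in LL.

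CMTR2, an enzyme that methylates the cap of messenger RNAs, had 0.293 FPKM in the LM testis (at least 25 reads), against 0.0349 FPKM in the LL testis (at least 21 reads), a log2 ratio of 3.07. SAXO1, known in mammals as a protein that stabilises the microtubules of the sperm axoneme, had 0.139 FPKM in the LM testis, against 0.0176 FPKM in the LL testis, a log2 ratio of 2.98. LOC107604277 had 0.579 FPKM in the LM testis (37 reads), against 0.0663 FPKM in the LL testis (8 reads), 4.89-fold higher in LM per length found (2.24 to 12.1). The remaining 3 of the 10 highest ratios, LOC101816729, LOC101805668 and LOC107603709, had log2 ratios of 3.58, 3.34 and 3.30 in FPKM. They had at most 0.177 FPKM in the LM testis, and LOC107603709 rested on 7 reads in LM and 1 in LL.

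**Figure D2:**
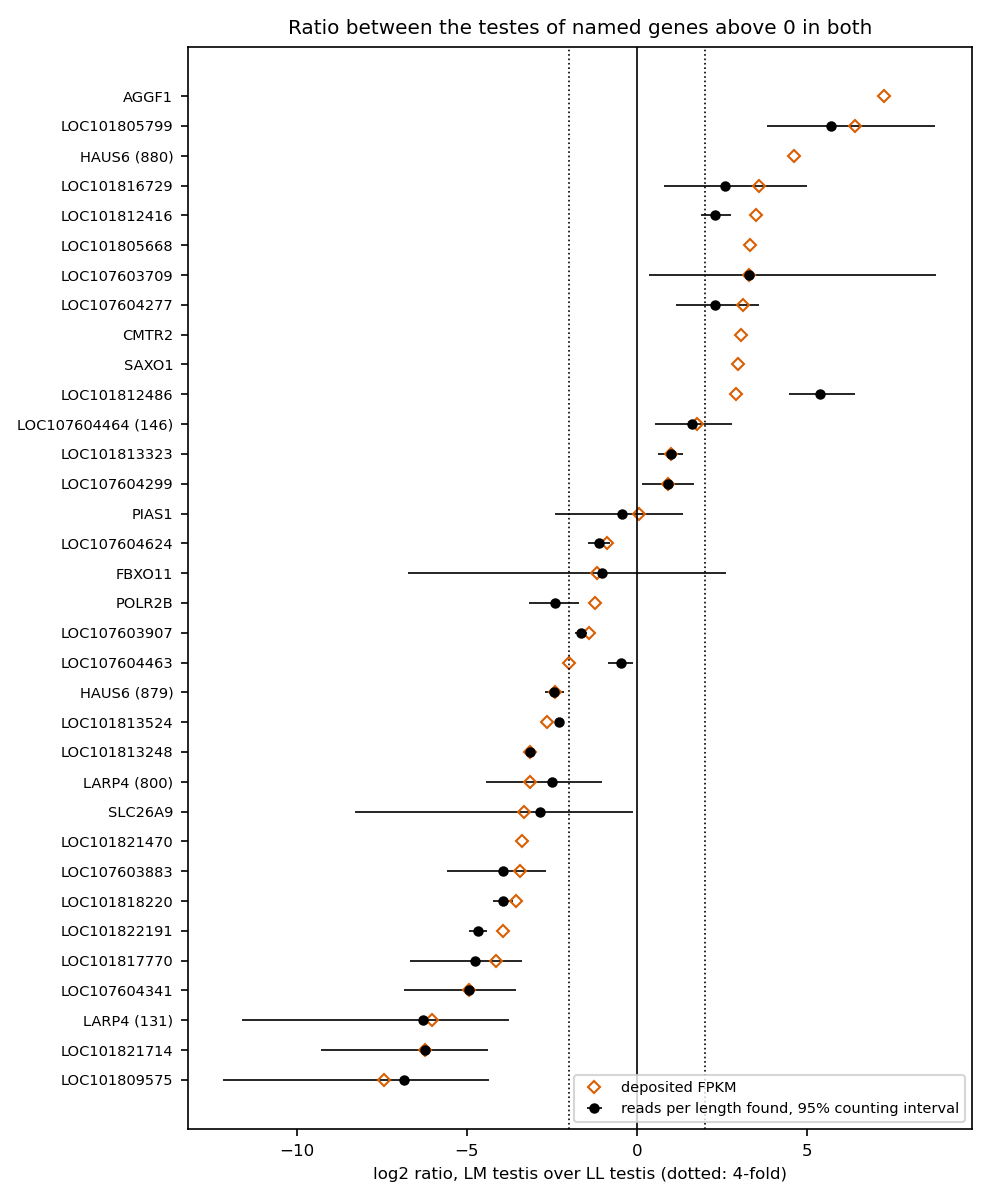
Log2 ratio of LM testis over LL testis for named genes above 0 in both testes, ordered by deposited FPKM. Open diamonds are deposited FPKM and filled circles are reads per length found with 95% counting intervals, drawn for listed genes; numbers in brackets are the last digits of the protein identifier, and dotted lines mark 4-fold. LOC101812486 moves from 2.93 to 5.37 and LOC107604463 from -2.01 to -0.48 between the 2 scales, while LOC101813248 stays at -3.13. The LM piece of LOC101812486 is shorter than a read, so its value per length found is unreliable.

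The length found moved other shared genes too. For LOC101808449 (XP_005062010), with 0.255 FPKM in the LM testis (26 reads), against 0.852 FPKM in the LL testis (436 reads), the log2 ratio was -1.74 in FPKM and -5.40 per length found. Its piece found in LL is shorter than a read of 150 bp, so the value per length found is unreliable. For LOC101809500, with 3.21 FPKM in the LM testis (486 reads), against 3.02 FPKM in the LL testis (1258 reads), it was 0.09 in FPKM and -1.84 per length found. LOC107604314 turned round, with a log2 ratio of 2.02 in FPKM and -0.38 per length found (interval of the ratio 0.165 to 3.86). LOC101815961 was near equal on both scales. It had 0.772 FPKM in the LM testis (332 reads), against 0.661 FPKM in the LL testis (426 reads), a ratio of 1.04 per length found (0.896 to 1.20). LOC101821108, which is not listed and has FPKM only, had 3.24 FPKM in the LM testis (at least 288 reads), against 2.97 FPKM in the LL testis (at least 373 reads).

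Genes at 0 in either testis fall into those with other evidence that the species' GRC holds the gene and those without. Of the 124 genes at 0 in the LL testis, 6 were above 0 in the LL ovary, 8 others had a piece on the LL GRC assembly, 31 were listed with no piece on it, and 79 are not listed and were at 0 in the LL ovary too. Of the 76 genes at 0 in the LM testis, 4 were above 0 in the LM ovary, 9 others had a piece on the LM GRC assembly, 17 were listed with no piece on it, and 46 are not listed and were at 0 in the LM ovary too. Where no piece was assembled, the gene may still be on the chromosome, and no ratio is given.

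LOC101810338 was the highest gene of the LM testis and had no read in the LL testis, although a piece of it lies on both GRCs. It had 36.3 FPKM in the LM testis (659 reads), against 0 reads in the LL testis. With the 3 reads that a count of 0 in the LL library allows, it was at least 300.5-fold higher in LM per length found. It was also a testis gene within LM, with 1 read in the LM ovary, and it had 0 reads in the LL ovary. LOC101821172 showed the same pattern, with 3.97 FPKM in the LM testis (301 reads), against 0 reads in the LL testis, at least 104-fold higher in LM.

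EFNB1, the membrane-bound ligand ephrin-B1 of Eph receptors, was the sixth highest gene of the LM testis. It had 6.26 FPKM in the LM testis (207 reads), against 0 reads in the LL testis, at least 70.1-fold higher in LM. The LL ovary had 21 reads of it, so that reads were counted on the LL copy in that tissue. LOC107603367, a retrovirus-derived gene, had 0.528 FPKM in the LM testis (19 reads), against 0 reads in the LL testis, and 9 reads in the LL ovary. The other 4 genes of this kind had few reads in the LM testis: 8 for LOC101818944, 2 each for GLYR1 and ALG13, and 1 for SYCP1. For ALG13, a subunit of an enzyme that starts sugar chains on proteins, those 2 reads stand beside 5431 in the LM ovary and 718 in the LL ovary.

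POLD2, a regulatory subunit of DNA polymerase delta, was the second highest gene of the LM testis at 16.2 FPKM (1379 reads) and was listed at 0 in the LL testis. CHD5 (XP_016158941), a chromatin remodeller that in mouse takes part in the exchange of histones in spermatids, had 2.86 FPKM in the LM testis (1063 reads) and was listed at 0 in the LL testis. LOC101818158 had 2.75 FPKM in the LM testis (98 reads) and was likewise listed at 0 in the LL testis. None of these 3 genes has a piece on the LL assembly or a value above 0 in the LL ovary. POLD2 and CHD5 were each above the LM ovary, at 4.25 and 0.510 FPKM.

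In the other direction, LOC101807535 was listed at 0 in the LM testis and had 5.998 FPKM in the LL testis (261 reads), although a piece of it lies on the LM GRC. With 3 reads allowed for the LM testis, it was at least 25.1-fold higher in LL per length found. LOC101808449 (XP_005062011) had 0 reads in the LM testis, against 2.14 FPKM in the LL testis (237 reads), at least 53.4-fold higher in LL. Both were also near 0 in the LL ovary, with 2 reads each. LOC101811078 and LOC101806394 were at 0 in the LM testis and ovary, the first with no piece on the LM assembly and the other outside the gene list. In the LL testis LOC101811078 had 3.90 FPKM (425 reads) and LOC101806394 had 1.21 FPKM (at least 836 reads).

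The 4 genes at 0 in the LM testis but above 0 in the LM ovary had low values in the LL testis. IGF1R, the receptor of insulin-like growth factors, had 0 reads in the LM testis, against 0.0729 FPKM in the LL testis (20 reads). It had 925 reads in the LM ovary and 462 in the LL ovary. The other 3 had 0 reads in the LM testis, against 10 reads of LOC107604464 (XP_016161147), 18 of LOC101821912 and 1 of LOC101816890 in the LL testis.

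Some genes that follow each other in the flycatcher's annotation shared their state. The sequences below were grouped by their order after the values had been seen, so they are a description. In a run of 16 coding sequences, from LOC101821516 to PTP4A3, 15 were above 0 in the LL testis and 3 in the LM testis. Among all 259 genes the shares were 52.1% and 70.7%. PTK2 and PTP4A3 each have more than 1 sequence in the run, and sequences of 1 gene are not independent. This run was the longest of those found, and most of the others were mixed in state. The run summed to 0.338 FPKM in the LM testis, against 2.86 FPKM in the LL testis. It holds CHRAC1, a histone-fold subunit of chromatin remodelling complexes, with 0.535 FPKM in the LL testis (11 reads). It also holds PTP4A3, a protein phosphatase, whose 2 sequences had 0.510 FPKM (15 reads) and 0.363 FPKM (17 reads) in the LL testis. TRAPPC9, AGO2 and PTK2 also lie in it, and all were at 0 in the LM testis. The listed sequences at 0 there, CHRAC1 and PTP4A3 among them, have no piece on the LM assembly. The others at 0 there are not listed and were at 0 in the LM ovary too. A gene without transcripts and a gene missing from the LM GRC cannot be told apart by these values. The paper describes a large block of A-chromosome sequence on the LL GRC that its LM assembly lacks. It reports the same absence in LM by PCR across a boundary of that block. Whether this run lies in the block was not tested. LOC101816049 within the run went the other way, with 0.306 FPKM in the LM testis (20 reads), against 0.0424 FPKM in the LL testis (4 reads).

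**Figure D3:**
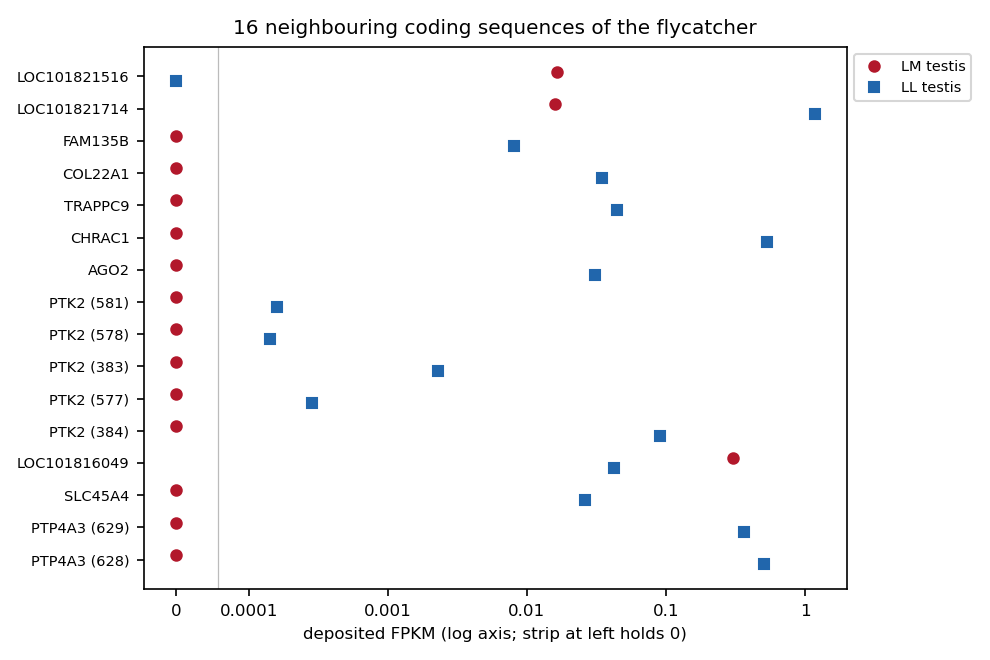
Deposited FPKM (log axis with a strip for 0) of 16 coding sequences in flycatcher order in the LM testis (circles) and the LL testis (squares), 1 library each. The LM testis is at 0 for all but LOC101821516, LOC101821714 and LOC101816049, and the LL testis is at 0 only for LOC101821516. The listed genes at 0 in the LM testis have no piece on the LM assembly.

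Another run lay on the LM side in its first part. POLD2, AEBP1 and DBNL, which stand close together, had 16.2, 0.0768 and 0.0170 FPKM in the LM testis and were at 0 in the LL testis. LOC101818012, further off in the same run, had 0.0184 FPKM in the LM testis and 0 in the LL testis. POLD2 and LOC101818012 have no piece on the LL assembly, AEBP1 has one, and DBNL is not listed. The last 2 genes of that run, LOC107604135 and LOC107604138, were at 0 in the LM testis and had 0.0104 and 0.170 FPKM in the LL testis. The 3 sequences of LOC101808449 stand side by side and differed in state. XP_005062012 had 1.21 FPKM in the LM testis, against 1.31 FPKM in the LL testis, where XP_005062010 was lower in LM and XP_005062011 was at 0 in LM.

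Genes of meiotic pairing and recombination had at most 5 reads in either testis where a read number could be recovered. Of 5 such genes in the table, 2 were above 0 in the LM testis alone, 2 in the LL testis alone, and TEX12 in neither. Since 22.8% of all 259 genes were above 0 in both testes, the lack of a shared gene among 4 says little of these genes. SYCE3, a component of the central element of the synaptonemal complex, had 0.216 FPKM in the LM testis (2 reads), against 0 in the LL testis, and 182 reads in the LM ovary. RNF212B, which in mouse and human acts in crossover formation, was at 0 in the LM testis and had 0.121 FPKM in the LL testis (5 reads). MSH4, a protein of the same process, was at 0 in the LM testis and had 0.0371 FPKM in the LL testis, with no read number recovered. SYCE3 has no piece on the LL assembly and RNF212B has none on the LM assembly, and MSH4 is not listed.

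SYCP1 forms the transverse filaments that hold paired chromosomes together. It had 0.0110 FPKM in the LM testis (1 read), against 0 reads in the LL testis, and 54 and 12 reads in the LM and LL ovaries. The study designed GRC primers for it, and 2 pairs are shown because they were drawn from different sections of the gene, the first from the LM assembly and the other from a section in both assemblies. The paper reports that PCR found the gene regions tested in this way, SYCP1 among them, on the GRC of both species. The names below give the assembly source of each pair and do not say that LL lacks the first section. They are printed 5′ to 3′ in lower case, with no base marked.
LM assembly section, forward: gacagaactggaagaagtc
LM assembly section, reverse: cctggaattcaatttctaagc
shared section, forward: tggagattgatgaaagcgatggtgt
shared section, reverse: gactgatctgggagtcctttaatgc
Which of these sections the read of the LM testis came from is not recorded in the FPKM.

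In the cilium and axoneme list the hydin-like gene described above held nearly all of the FPKM. Of its 6 genes in the table, 2 were above 0 in a testis, LOC101813248 in both and RSPH14, a radial spoke protein, in the LL testis alone at 0.0281 FPKM. The other hydin-like gene, LOC101814235, was at 0 in both testes. The list summed to 8.23 FPKM in the LM testis, against 71.9 FPKM in the LL testis. SAXO1, given above, is an axoneme gene outside the list and was higher in the LM testis.

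On the retrovirus-derived and zinc finger lists, 3 coding sequences were above 0 in both testes and higher in the LM testis, as were 31 of all 59 shared genes (52.5%). LOC107604299, which resembles a retroviral gene, had 2.71 FPKM in the LM testis (36 reads), against 1.44 FPKM in the LL testis (27 reads), 1.88-fold higher in LM per length found (1.11 to 3.22). LOC107604464 (XP_016161146) had 0.659 FPKM in the LM testis (25 reads), against 0.196 FPKM in the LL testis (11 reads), 3.06-fold higher in LM (1.45 to 6.89). LOC101813323, a zinc finger gene, had 5.24 FPKM in the LM testis (155 reads), against 2.63 FPKM in the LL testis (110 reads), 1.98-fold higher in LM (1.54 to 2.56). None of these 3 reached 4-fold. LOC107604464 (XP_016161147) went the other way, with 0 reads in the LM testis, against 10 reads in the LL testis. Of 8 zinc finger genes in the table, 2 more were above 0, ZNF565 and ZNF469, both in the LM testis alone and with at most 0.120 FPKM. ZNF565 has no piece on the LL assembly, and ZNF469 is not listed.

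Of 12 coding sequences of the list of RNA-binding regulators in the table, 3 were above 0 in a testis, on few reads in LM. LARP4, which binds the poly(A) tail and stabilises messenger RNAs, had 2 of them. Both were at least 4-fold lower in LM, as were 20 of all 59 shared genes (33.9%). XP_005062131 had 0.00874 FPKM in the LM testis (1 read), against 0.563 FPKM in the LL testis (100 reads), 77.8-fold lower in LM per length found (13.7 to 3105). XP_016160800 had 0.0117 FPKM in the LM testis (4 reads), against 0.103 FPKM in the LL testis (40 reads), 5.67-fold lower in LM (2.05 to 21.8). AGO2, the slicer of small RNA silencing, was at 0 in the LM testis and had 0.0309 FPKM in the LL testis (3 reads). It has no piece on the LM assembly. CMTR2, which acts on messenger RNA but is not on that list, was higher in the LM testis, as given above.

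Of 12 coding sequences of replication, transcription and chromatin genes, 8 were above 0 in the LM testis alone, 1 in the LL testis alone (CHRAC1) and 3 in both, against 47.9%, 29.3% and 22.8% of all 259 genes, a difference that was not tested. The list summed to 20.5 FPKM in the LM testis, against 1.01 FPKM in the LL testis, and POLD2 and CHD5 made most of the LM sum. BTF3, a general transcription factor, had 1.05 FPKM in the LM testis (40 reads) and was at 0 in the LL testis. MEF2D, AEBP1, ELL2, GLYR1 and a further CHD5 sequence (XP_016158939) had at most 0.0877 FPKM in the LM testis and 0 in the LL testis. POLD2, CHD5 (XP_016158941), BTF3, MEF2D and ELL2 have no piece on the LL assembly, and CHRAC1 has none on the LM assembly. The counts and sums of this list therefore mix genes at 0 with genes not found on a GRC. Outside that list, and chosen after the values were seen, the chromatin genes CHD4 and GATAD2A had 0.375 FPKM (284 reads) and 0.456 FPKM (at least 187 reads) in the LM testis. CHD4 has a piece on the LL GRC and 0 reads in the LL testis, at least 14.7-fold higher in LM per length found. GATAD2A is not on the gene list and was at 0 in the LL testis and the LL ovary.

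POLR2B and PIAS1 of that list were above 0 in both testes. POLR2B, a core subunit of RNA polymerase II, had 0.161 FPKM in the LM testis (20 reads), against 0.375 FPKM in the LL testis (99 reads), 5.28-fold lower in LM per length found (3.24 to 9.02). PIAS1, a ligase that attaches SUMO to other proteins, had 0.0639 FPKM in the LM testis (5 reads), against 0.0607 FPKM in the LL testis (8 reads). For PIAS1 the interval of the ratio per length found held 1 (0.190 to 2.56), so that no difference was detectable at this depth.

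Of 14 coding sequences of growth factor and signalling genes, 4 were above 0 in the LM testis alone, 10 in the LL testis alone and none in both, against 47.9%, 29.3% and 22.8% of all 259 genes. PTK2 and PTP4A3 account for 7 of the 10 sequences on the LL side, and sequences of 1 gene are not independent. Their sums were 6.33 FPKM in the LM testis, nearly all of it EFNB1, against 1.09 FPKM in the LL testis. PCDH7, a cell adhesion protein, had 0.0389 FPKM in the LM testis (at least 94 reads). SEMA7A, a membrane-anchored semaphorin, had 0.0152 FPKM there (at least 28 reads) and GPC5 had 0.0174 FPKM (2 reads). All 3 were at 0 in the LL testis. GPC5 has no piece on the LL assembly, and PCDH7 and SEMA7A are not listed and were at 0 in the LL ovary too. On the LL side, PTK2 (focal adhesion kinase) had 5 of the 10 sequences, the highest at 0.0903 FPKM (23 reads). DOCK1 and BRSK2 were at 0 in the LM testis and had 0.0462 FPKM (24 reads) and 0.00569 FPKM (1 read) in the LL testis. Neither has a piece on the LM assembly, nor do PTP4A3 and the listed PTK2 sequence.

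Among genes of protein turnover and modification, 8 coding sequences were above 0. Of these, 3 were above 0 in both testes, 3 in the LM testis alone and 2 in the LL testis alone. Among all 259 genes the shares were 22.8%, 47.9% and 29.3% in the same order. FBXO11, a substrate receptor of a ubiquitin ligase, had 0.01002 FPKM in the LM testis (1 read), against 0.0224 FPKM in the LL testis (3 reads), with an interval of the ratio per length found from 0.00943 to 6.16. MKLN1, of another ubiquitin ligase, had 0.186 FPKM in the LL testis (60 reads), and TRAPPC9 had 0.0446 FPKM there (11 reads). Both were at 0 in the LM testis and have no piece on the LM assembly. FEM1B and RABGGTA had 0.0645 FPKM (6 reads) and 0.0479 FPKM (7 reads) in the LM testis. Both were at 0 in the LL testis and have no piece on the LL assembly. HAUS6, placed in this list, gave the 2 sequences past 4-fold by deposited FPKM, 1 each way.

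The transporters were scarce. SLC26A9, a chloride transporter, had 0.00994 FPKM in the LM testis (1 read), against 0.0990 FPKM in the LL testis (12 reads), and the interval per length found, 1.07- to 310-fold lower in LM, came close to 1. It had 86.6 FPKM in the LM ovary and 19.8 FPKM in the LL ovary. SLCO1C1, a transporter of thyroid hormone, was at 0 in the LM testis and had 0.00365 FPKM in the LL testis (1 read). It has no piece on the LM assembly.

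The testis ratios were set beside the ovary ratios of the same genes, since the length found on each species' assembly cancels in the difference between the tissues. It does not cancel in the sign of either ratio, so the counts of direction below still carry it. The testis and the ovary came from different birds, so that differences in gene copies between birds do not cancel. Both could be computed for 41 genes. By deposited FPKM the direction was the same for 28 of them, 16 higher in LM and 12 lower in LM in both tissues. LOC101809500 is counted among those higher in LM, but its testis log2 ratio was 0.09 in FPKM and -1.84 per length found. It was opposite for 13, of which 6 were higher in the LM testis and lower in the LM ovary, and 7 the reverse. The median log2 ratio of LM over LL was 0.07 in the testes and 0.55 in the ovaries, and the median of the difference, testis minus ovary, was -1.39.

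Among the genes of opposite direction, the testis and ovary ratios lay furthest apart for LARP4 (XP_005062131) and LOC101812486. Each rests on few reads, with 1 read of LARP4 in the LM testis and 2 of LOC101812486 in the LM ovary. For LARP4 (XP_005062131), lower in the LM testis as given above, the ovaries had 1.15 FPKM in LM (215 reads), against 0.384 FPKM in LL (50 reads). LOC101812486, higher in the LM testis, had 0.0506 FPKM in the LM ovary (2 reads), against 0.834 FPKM in the LL ovary (9 reads). POLR2B had 20 reads in the LM testis and 99 in the LL testis. In the ovaries it had 4.32 FPKM in LM (873 reads), against 0.879 FPKM in LL (170 reads), again opposite to the testes. AGGF1 behaved otherwise, with log2 ratios of 7.26 in the testes and 7.61 in the ovaries.

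**Figure D4:**
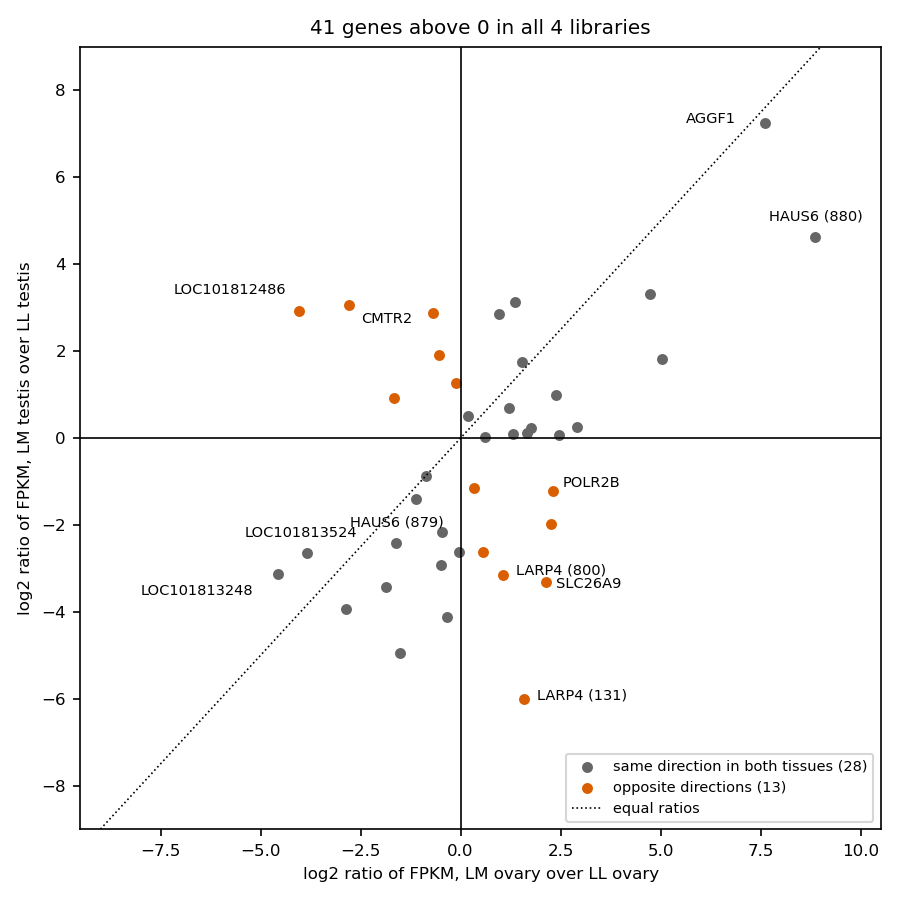
Log2 ratio of FPKM, LM over LL, in the testes (y axis) and the ovaries (x axis) for the 41 genes above 0 in all 4 libraries; the dotted line marks equal ratios. In 28 genes both ratios have 1 sign (grey) and in 13 they do not (orange), with LARP4, SLC26A9 and POLR2B at the lower right and LOC101812486 and CMTR2 at the upper left.

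Of the same 41 genes, 10 were at least 4 times as high in the testis as in the ovary in both species, and they were picked out after their values had been seen. All 10 carry LOC numbers, as do 40 of the 59 genes shared by the testes (67.8%). They summed to 28.0 FPKM in the LM testis, against 149.1 FPKM in the LL testis. LOC101813248 and LOC101813524, at 71.9 and 48.3 FPKM, made most of the LL sum. Of the 10, 6 were lower in the LM testis. Among all 59 shared genes 31 (52.5%) were higher there and the rest lower, which is little different for a set of 10. LOC101813524 was the most extreme in each species, at 839 times the ovary in LM and 368 times the ovary in LL. Its ovary values rest on few reads, 2 in LM and 16 in LL. LOC107603742, not described above, had 0.396 FPKM in the LM testis (68 reads), against 2.99 FPKM in the LL testis (814 reads), 9.52-fold lower in LM per length found (7.42 to 12.4), and 2 reads in each ovary. Of the 10 highest genes, 7 in the LM testis and 8 in the LL testis were at least 4 times as high as in the ovary of their species. These genes were chosen by their testis values, which the ratio also uses. Their share therefore says nothing of the testis genes in general.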

How the data were processed

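Messenger RNA of whole gonads was sequenced from stranded libraries as single-end reads of 150 bp. The submitters' processing notes name Trimmomatic 0.39 for trimming and STAR 2.7.9a for alignment, which was against the GRC assembly together with the somatic genome, with only unique alignments to GRC exons counted. The authors deposited FPKM with decimal commas for 799 coding sequences in 4 libraries. The counting tool is not given in the sources used here, nor is the use of strand. The members, gene lists and named genes were chosen with earlier results of these data known. Named were the 10 highest genes of each testis, the 10 highest and 10 lowest ratios, the 5 highest genes at 0 in the other testis (with and without a value in that species' ovary) and the members of the lists given above by role, with other genes named after their values were seen. A member of these lists is not reported here.

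For the listed genes, reads were recovered with coding lengths and proportions from the study's gene table, within 0.01 reads of a whole number for 100% of values. This was tested on simulated data. A call is a ratio of at least 4. Intervals of ratios are exact conditional binomial ones at 95%, those of shares exact Clopper-Pearson, and a count of 0 allows 3 reads. The alternatives were minimum FPKM or reads, expected genes at equal depth, merged symbols, other length divisors, pseudocounts, scaling to the sum, leaving out LOC genes or the 5 highest genes of each testis, and ratios relative to the ovaries. Python 3.11.15, numpy 2.4.6, pandas 2.3.3, scipy 1.17.1 and matplotlib 3.10.9 were used. Coordinates are not given, as no genome was used here.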

Additional observations from a re-analysis of the deposited data

Results flagged for a closer look

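For 7 of the 41 coding sequences above 0 in all 4 libraries, the direction differed between the tissues by deposited FPKM. LM and LL were at least 2-fold apart one way in the testes and at least 2-fold the other way in the ovaries. With 1 library per species and tissue this difference between tissues was not tested. Given as the log2 ratio of LM over LL in the testes minus that in the ovaries, it was -7.60 for LARP4 (XP_005062131), -5.44 for SLC26A9, -4.21 for LARP4 (XP_016160800), -4.24 for LOC107603614, -3.52 for POLR2B, 6.97 for LOC101812486 and 5.86 for CMTR2. In the LM testis the LARP4 sequences and SLC26A9 had 1, 4 and 1 reads, and LOC107603614 had 1.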

How the results depend on the processing

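No alternative left out a replicate, and no paired analysis was possible because each species and tissue has 1 library. The cause of the changes below was not tested. With an FPKM of at least 0.1 the genes counted fell to 63 in the LM testis, 46 in the LL testis and 25 in both, and with at least 1 to 25, 25 and 13. With at least 10 reads the listed genes fell to 44, 46 and 21 in the same order. At the depth of the LM testis 68.9 listed genes were expected in the LL testis, against 71 counted. Genes at least 4-fold higher and lower in LM numbered 3 and 10 with 0.1 FPKM in both testes, and 3 and 7 listed ones with 10 reads in both. Over all genes above 0 in either testis they numbered 59 and 44 with a pseudocount of 0.01, 23 and 20 with 0.1, and 5 and 6 with 1. Scaling to the sum of values, which moves every log2 ratio up by 0.69, gave 20 higher and 13 lower.

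The median log2 ratio changed sign to -1.22 with 0.1 FPKM in both testes. It was 0.072, 0.0079 and 0.00079 with the 3 pseudocounts, 0.50 without LOC genes, 0.12 without the 5 highest genes of each testis and 0.76 after scaling to the sum. For listed genes it was -1.22 in FPKM, -1.65 per length or bases found, -1.24 per full coding length and -0.88 with 10 reads in both. The log2 ratio of the summed FPKM, -0.69 as deposited, turned to 0.031 without the 5 highest genes of each testis and to 1.68 without LOC genes, and was -1.03 in RPM.

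Among single genes, PIAS1 turned to -0.44 per length or bases found and -0.18 per full coding length. Relative to the ovaries 14 of all 41 genes with a value turned round, 7 of them among the 25 that the rule names: PIAS1 (-2.39), LOC107603709 (-1.43), LOC101813248 (1.43), AGGF1 (-0.36), LOC101813323 (-1.39), LOC101813524 (1.19) and HAUS6 XP_016160880 (-4.24). Thus both highest LL testis genes were lower in LM in the testes and lower still in the ovaries, where LOC101813524 had only 2 reads in LM.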
